A study of Mus musculus with 4 samples.

Results

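Transcripts of 6 transcription factor genes, the nuclear receptors Nr4a1, Nr4a2 and Nr4a3 and the zinc finger factors Egr1, Egr2 and Egr3, were followed in activated mouse T cells. The 6 were taken by symbol, and all of them were found among the 50600 genes of the count files. RNA-seq had been carried out on primary T cells from mice of strain C57BL/6NJ, with 1 group of 4 libraries that are numbered as biological replicates 1 to 4. The headers of the count files give the cells as activated for 16 h and as Th0, a term for T helper cells stimulated with no cytokine that directs a lineage. The labels tie them to a differentiation protocol for CD4+ T cells. The activating agents are not given in the sources used here, sex was not collected, and age is given as unknown. The 4 biosamples share 1 donor identifier, and nothing says that they came from separate animals, so each p-value measures only the spread between these libraries, which may be technical. No resting cells were part of the comparison, so the levels describe the activated state and not a change upon activation.

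The NR4A proteins are orphan nuclear receptors whose activity follows their amount rather than a known hormone, and the EGR proteins bind GC-rich DNA through zinc fingers. Both families are immediate early genes: signals from the T cell receptor, through calcium, MAP kinases and the factors SRF, ELK, MEF2 and CREB, switch them on without new protein synthesis. In T cells Nr4a1 is widely used as a reporter of receptor signal strength, NR4A factors are known from tolerance, exhaustion and regulatory T cells, and EGR2 and EGR3 from the restraint of activation.

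The libraries held between 46192242 and 63313389 counted read pairs. The T cell label was checked against markers: all 6 T cell genes and all 3 CD4 T cell genes examined reached 1 TPM in each library, where TPM is the count over exonic length, scaled to the same sum in each library. Of the CD8 markers 1 of 3 did so, Cd8b1. None of 5 B cell, 5 macrophage and monocyte, 5 dendritic cell, 3 NK cell and 4 neutrophil markers did so. The summed level of the CD8 markers ran from 54.6 to 63.4 TPM. Of these Cd8b1 lay at 53.3 to 61.1 TPM, Cd8a at 0.225 to 1.06 TPM and Eomes at 0.447 to 1.42 TPM. The summed level of the B cell markers ran from 1.67 to 6.59 TPM, that of the macrophage list from 0.122 to 0.330 TPM, that of the dendritic cell list from 0.644 to 0.857 TPM and that of the NK cell list from 0 to 0.132 TPM. Cd14, Siglech and all 4 neutrophil markers had no count in any library. In bulk RNA a smaller share of cells that express a gene and less RNA per cell cannot be told apart.

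Upstream sequence of 4 members was held by the RefSeq table used (build GRCm38.p6), and it is shown because the 3 NR4A genes share a sequence feature while their levels lie far apart. Each line gives bases upstream of the RefSeq start site, 5′ to 3′ on the strand of the gene, with the cyclic AMP response element half-site TGACG (on either strand, so also CGTCA) and the CArG box, the sequence bound by SRF, in capitals.
Nr4a1: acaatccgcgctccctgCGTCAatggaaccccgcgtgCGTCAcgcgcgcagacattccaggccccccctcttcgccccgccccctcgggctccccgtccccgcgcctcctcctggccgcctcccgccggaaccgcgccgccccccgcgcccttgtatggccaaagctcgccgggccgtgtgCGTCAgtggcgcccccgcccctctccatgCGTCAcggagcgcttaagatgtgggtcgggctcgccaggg
Nr4a2: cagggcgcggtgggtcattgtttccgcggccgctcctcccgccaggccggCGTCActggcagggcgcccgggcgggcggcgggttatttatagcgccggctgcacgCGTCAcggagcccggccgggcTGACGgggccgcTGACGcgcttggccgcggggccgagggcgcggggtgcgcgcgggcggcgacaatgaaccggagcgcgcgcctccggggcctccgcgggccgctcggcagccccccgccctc
Nr4a3: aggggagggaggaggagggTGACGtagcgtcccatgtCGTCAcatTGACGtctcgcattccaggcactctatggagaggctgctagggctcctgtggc
Egr2: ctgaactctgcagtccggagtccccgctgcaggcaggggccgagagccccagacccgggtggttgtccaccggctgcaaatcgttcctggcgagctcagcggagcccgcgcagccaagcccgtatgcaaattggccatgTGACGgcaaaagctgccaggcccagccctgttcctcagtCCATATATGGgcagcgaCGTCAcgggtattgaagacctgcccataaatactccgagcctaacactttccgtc

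These stretches lie at chr15:101266596-101266845 on the plus strand (Nr4a1), chr2:57124004-57124253 on the minus strand (Nr4a2), chr4:48045055-48045152 on the plus strand (Nr4a3) and chr10:67537619-67537868 on the plus strand (Egr2). For Nr4a3 the first 98 of the 250 upstream bases are printed, since the rest overlaps an annotated exon. The 250 bases upstream of Nr4a1, Nr4a2 and Nr4a3 each held 4 half-sites, and 3 of those of Nr4a3 are in the printed part. Of 32851 upstream windows of 250 bases in the table, with 1 or more windows per gene, 17.8% held at least 1 half-site and 0.137%, or 45 windows, held 4 or more. The 45 include the windows of Nr4a1, Nr4a2 and Nr4a3, and no share here was taken over windows of like G and C content. Egr2 has 5 windows in the table, and the one at the start of its longest GENCODE M21 transcript was used. The single Nr4a1 window ends at a start site 12577 bases downstream of the start of the longest Nr4a1 transcript, and the single Nr4a2 window at one 8965 bases upstream of that of Nr4a2. The Egr2 window held 2 half-sites, as 2 or more did in 3.9% of windows, and 1 CArG box, which 1.47% of windows held. The full element TGACGTCA, which contains the half-site on both strands, was in none of the 4 windows and in 1.55% of all. The EGR site GCGNGGGCG was found once upstream of Nr4a1 and once upstream of Nr4a2, against 4.70% of windows with a match, and the NR4A monomer site AAAGGTCA was found in none of the 4 against 1.34%. The windows were rich in G and C, at 74.4% for Nr4a1, 80.0% for Nr4a2, 63.6% for Nr4a3 and 61.6% for Egr2, against a median of 52.4% over all windows. A match describes letters only and does not show binding.

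All 6 members reached 1 TPM in each library, which 22.1% of all genes and 45.2% of nuclear protein-coding genes did. So did 11000 of the 12285 genes tested for spread, among which are all 6 members. Their median of mean levels was 62.1 TPM, against 32.7 TPM over the 9840 nuclear protein-coding genes that reached 1 TPM in every library. Between the highest member and the lowest the mean levels differed 50.2-fold.

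Among the nuclear receptors Nr4a1 was the main transcript. Nr4a1 (NUR77; ENSMUSG00000023034.6, mm10 chromosome 15, 101266846 to 101274792, plus strand, 7 merged exons) lay at 335, 319, 341 and 336 TPM in replicates 1 to 4. The 4 values were close together, with replicate 2 the lowest, and their mean of 333 ± 9.46 TPM (SD, n = 4) put the gene above 95.1% of those 9840 protein-coding genes. Nr4a3 (NOR1; ENSMUSG00000028341.9, chromosome 4, 48045153 to 48086447, plus strand, 9 merged exons) lay at 90.5, 90.7, 92.8 and 104 TPM. Replicate 4 was above the other three, which were alike, and the mean was 94.4 ± 6.24 TPM (SD, n = 4). Nr4a2 (NURR1, best known from dopamine neurons; ENSMUSG00000026826.13, chromosome 2, 57106830 to 57124003, minus strand, 10 merged exons) lay at 7.23, 6.50, 6.35 and 6.46 TPM. Replicate 1 was the highest, and the mean of 6.63 ± 0.404 TPM (SD, n = 4) was above 15.6% of the protein-coding genes.

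Within the NR4A sum Nr4a1 took 77.4%, 76.7%, 77.5% and 75.3% of the TPM in replicates 1 to 4. Nr4a3 took 20.9%, 21.8%, 21.1% and 23.2%, highest in replicate 4, where the share of Nr4a1 was lowest. Nr4a2 took 1.53 ± 0.108% (SD, n = 4). Of the read pairs, which favour the long transcript of Nr4a3, Nr4a1 held 58.2 ± 1.41% and Nr4a3 39.9 ± 1.5% (SD, n = 4), so Nr4a1 led on either scale.

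**Figure D1:**
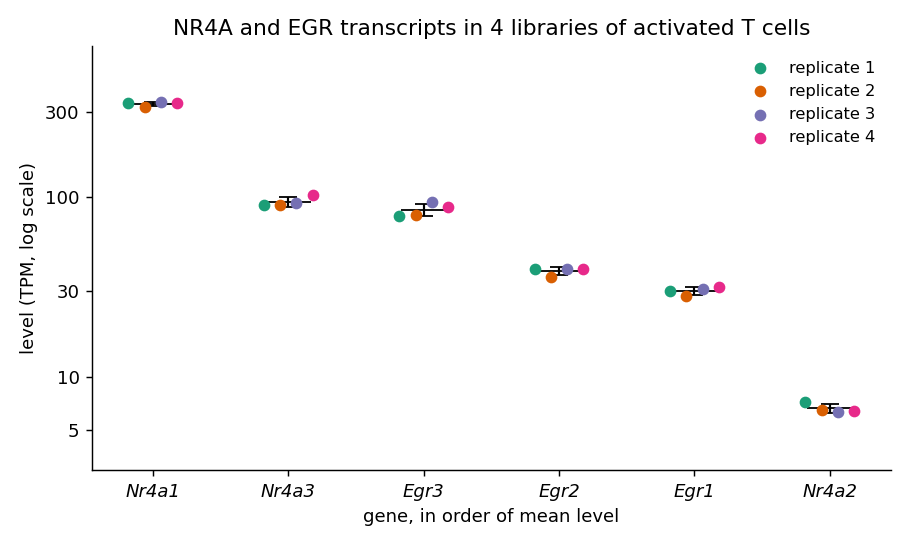
Level of each member in TPM on a log axis, with genes in order of their mean; points are the 4 libraries, and the horizontal mark and bars are the mean and SD (n = 4). Nr4a1 stands alone at 333 TPM, Nr4a3 and Egr3 overlap near 90 TPM, and Nr4a2 is lowest at 6.63 TPM.

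Among the EGR factors Egr3 had the highest TPM and Egr1 the lowest. Egr3 (ENSMUSG00000033730.3, chromosome 14, 70077445 to 70080157, plus strand, 2 merged exons) lay at 79.1, 79.9, 93.7 and 88.5 TPM. Replicates 3 and 4 were higher than replicates 1 and 2, and the mean was 85.3 ± 7.0 TPM (SD, n = 4). Egr2 (KROX20; ENSMUSG00000037868.15, chromosome 10, 67535475 to 67542188, plus strand, 5 merged exons) lay at 39.7, 36.0, 39.8 and 39.95 TPM. Replicate 2 was below the other three, which lay within 1 TPM of each other, and the mean was 38.8 ± 1.89 TPM (SD, n = 4). Egr1 (ZIF268; ENSMUSG00000038418.7, 2 merged exons) lay at 29.9, 28.0, 30.7 and 31.6 TPM, again lowest in replicate 2, with a mean of 30.0 ± 1.52 TPM (SD, n = 4).

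The EGR sum was divided more evenly than the NR4A sum. Egr3 took 53.2%, 55.5%, 57.1% and 55.3% of its TPM in replicates 1 to 4, Egr2 25.2 ± 1.03% and Egr1 19.5 ± 0.602% (SD, n = 4). By read pairs the 3 genes were nearly equal, with 34.8 ± 0.587% for Egr1, 34.1 ± 0.896% for Egr2 and 31.1 ± 1.36% for Egr3 (SD, n = 4). The lead of Egr3 therefore rests on the length its counts are divided by. The files give Egr3 1416 exonic bases, whereas the longest transcript in the later GENCODE M21 annotation has 3940 bases, of which 1416 lie inside the counted exons. Read pairs from the remainder of that transcript could not be counted for Egr3. With the length of the longest transcript for every gene, Egr3 came to 24.2 TPM, below Egr2 at 35.1 TPM and beside Egr1 at 23.7 TPM. With only the part of that transcript inside the counted exons, Egr3 came to 57.4 TPM against 29.9 TPM for Egr2 and 20.2 TPM for Egr1. For Egr3 (1416 bases) and Egr1 (4484 bases) that part equals the deposited length, so their ratio could not change. For Egr2 it is 2965 bases, although its read pairs were counted over 3398. The other 5 members had a longest transcript between 0.873 and 1.03 times their deposited exonic length.

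**Figure D2:**
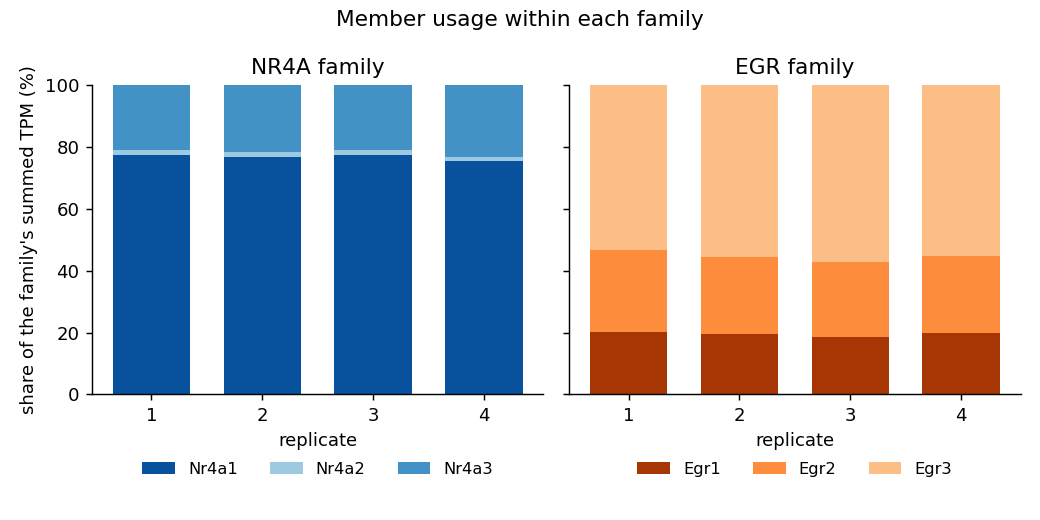
Share of each member in the summed TPM of its family, in percent, as stacked bars for replicates 1 to 4. Nr4a1 fills over 75% of the NR4A bar in every library, and Nr4a2 is a thin band of 1.53% on average. Egr3 fills between 53.2% and 57.1% of the EGR bar.

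The order of the 6 within a library was Nr4a1, Nr4a3, Egr3, Egr2, Egr1 and Nr4a2, except that 1 pair of neighbours changed places in 1 library. Differences were taken within each library on the log2(TPM + 1) scale for all 15 pairs of members and for the 2 family sums. Nr4a1 exceeded Nr4a3 by 1.81 ± 0.088, Egr3 exceeded Egr2 by 1.11 ± 0.098, Egr2 exceeded Egr1 by 0.36 ± 0.027 and Egr1 exceeded Nr4a2 by 2.02 ± 0.11 (SD, n = 4), each in 4 of 4 libraries and with no overlap of TPM ranges. Nr4a3 exceeded Egr3 by 0.15 ± 0.11 in 3 of 4 libraries, with overlapping ranges. In replicate 3 Egr3 was the higher by a small margin, a difference of -0.013, and without that replicate the difference was 0.20 ± 0.024 (SD, n = 3). It was 0.21 with the part of the longest transcript inside the counted exons, with Nr4a3 higher in 4 of 4 libraries. With the whole length of that transcript it was 1.65 and in read pairs 2.20, again in 4 of 4 libraries. None of the values with another length or in read pairs is matched to the counted length of both genes. Egr3 was counted over 1416 exonic bases and Nr4a3 over 5987, and the longest Egr3 transcript has 3940. The part inside the counted exons is 1416 bases for Egr3 but 5720 for Nr4a3, which raises the difference in every library. The exact two-sided sign-flip permutation p was 0.13 (adjusted over the 16 differences 0.133) for every difference except that between Nr4a3 and Egr3, with 0.25 (adjusted 0.25), and 0.13 is the smallest p that 4 libraries allow. By read pairs alone the order of Egr1, Egr2 and Egr3 was turned, with Egr3 lowest, and the longest transcript length put Egr3 below Egr2 as given above.

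The NR4A sum exceeded the EGR sum in each library. The NR4A sum was 434 ± 12.8 TPM and the EGR sum 154 ± 9.44 TPM (SD, n = 4), a ratio of 2.91, 2.89, 2.68 and 2.79 in replicates 1 to 4. The ratio was lowest in replicate 3, where Egr3 was highest. On the log2(TPM + 1) scale the difference was 1.49 ± 0.054 in 4 of 4 libraries (exact sign-flip permutation p = 0.13, adjusted 0.133). Together the 6 genes held 0.0537 ± 0.00123% of all read pairs (SD, n = 4).

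None of the 6 members passed the test of spread between replicates, which compares the residual dispersion of each gene with that of genes of like abundance, while 28 of 12285 genes tested, or 0.228%, passed it. Their adjusted p was 0.996 for each (edgeR quasi-likelihood with Benjamini-Hochberg adjustment), and none of the 6 had an unadjusted p under 0.05. DESeq2 marked none of them as a dispersion outlier, while 84 of 20867 genes were so marked. The residual dispersion was below the trend for 4 of the 6, a share near the 58.3% of genes tested, from 0.27 times the trend for Nr4a1 to 0.452 times for Egr2. It was above the trend for Nr4a3, at 1.18 times, and for Egr3, at 1.38 times. Neither excess held with every replicate left out in turn. Without replicate 4 Nr4a3 came to 0.060 times the trend. Egr3 came to 0.405 times without replicate 3 and to 2.33 times without replicate 4.

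The SD of log2 CPM (counts scaled to library size, with TMM factors) was 0.035 for Nr4a1, 0.055 for Egr1, 0.060 for Egr2, 0.070 for Nr4a3, 0.096 for Nr4a2 and 0.105 for Egr3, against a median of 0.102 over all genes tested. Nr4a1 had a lower SD than all but 6.94% of those genes. Counting error alone would give Nr4a1, with 11156 to 15919 read pairs, an SD of about 0.013, and Nr4a2, with 352 to 486 read pairs, one of about 0.070. Nr4a1 had the smallest SD of the 6 and also the smallest counting error, and Nr4a2 the largest counting error. The other members did not follow this order. Egr3 had the largest SD with a counting error of about 0.033. Nr4a3, with one of about 0.015, had a larger SD than Egr1 and Egr2, with about 0.031 and 0.032. In TPM, 1 library lay apart from the other three by Dixon's ratio for 2 of the 6 members, Nr4a2 and Egr2, and for 5.89% of all genes tested.

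**Figure D3:**
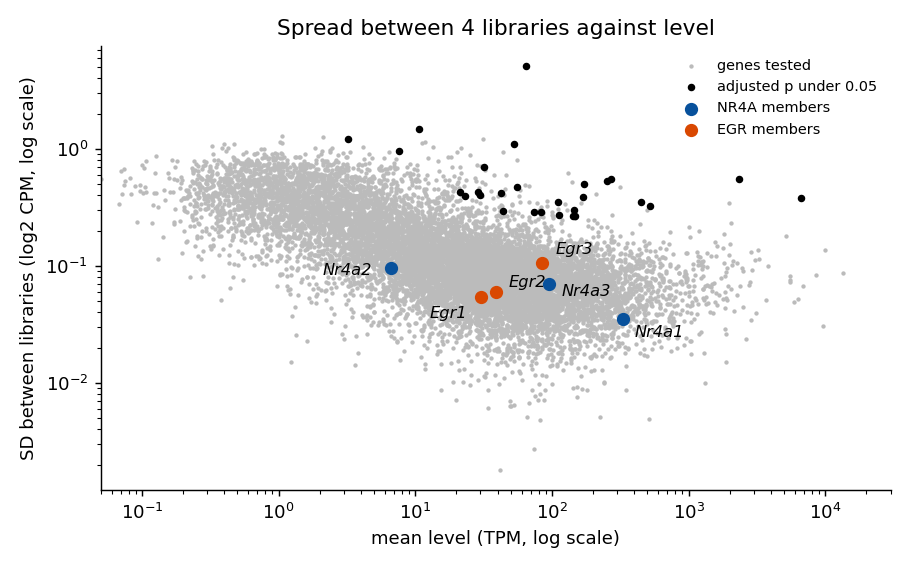
SD of log2 CPM between the 4 libraries against mean TPM, both on log axes, for the 12285 genes tested (grey), the 28 genes past the threshold (black), and the NR4A (blue) and EGR (orange) members. The members lie inside the grey cloud, with Nr4a1 at 0.035 and Egr3 at 0.105.

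By library the members did not move as 1 block. In replicate 2 all 6 lay below their own mean, from -0.0074 for Nr4a2 to -0.087 for Egr2 on the log2 CPM scale. In replicate 3 Egr3 lay 0.14 above its mean, Nr4a1, Egr1 and Egr2 lay between 0.031 and 0.036 above theirs, and Nr4a2 and Nr4a3 were below. In replicate 1 Nr4a2 lay 0.14 above its mean while Egr3 was lowest, at -0.093. The most alike pair over the 4 libraries was Egr1 and Egr2, with a root mean square difference of 0.024 between their centred log2 CPM values, and the least alike was Nr4a2 and Egr3, with 0.16.

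In replicate 4 Nr4a3 lay 0.10 above its mean, and other long transcripts were shifted the same way. Nr4a3 has 5987 exonic bases, and the 4426 tested genes of 5000 bases or more had a median deviation of 0.041 in that replicate, against -0.052 for the 2546 genes under 2000 bases. These length classes were chosen after the value of Nr4a3 had been seen. The summed level of the 5 B cell markers was also lowest in replicate 4, at 1.67 TPM against 4.91 to 6.59 TPM in the others, with 4 of the 5 at their lowest there and Ebf1 at its highest, 0.107 TPM. The part of either in the value of Nr4a3 was not tested.

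**Figure D4:**
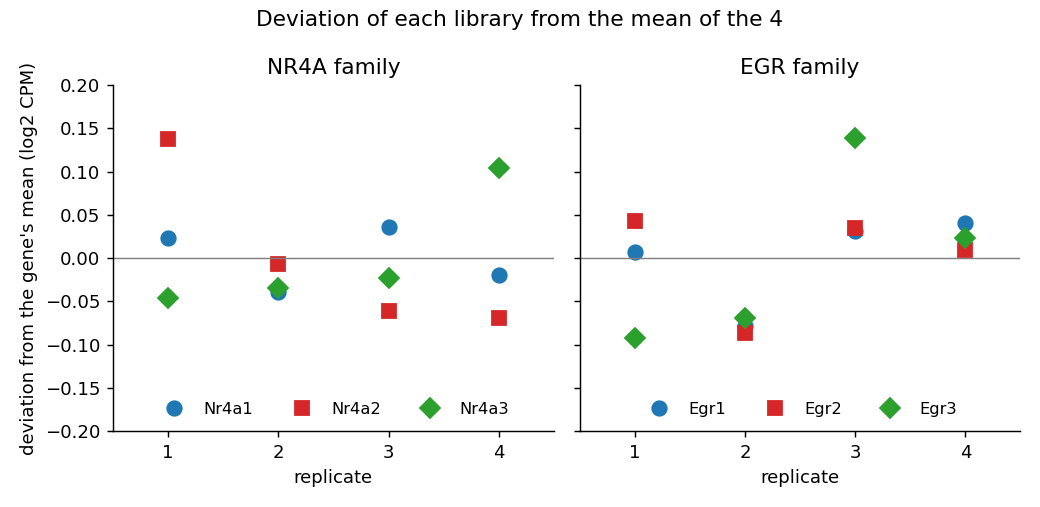
Deviation of each library from the mean of the gene over the 4 libraries, in log2 CPM, for the NR4A members (left) and the EGR members (right). All points of replicate 2 lie below 0, and the share of all tested genes that did so was not taken. The largest deviations are those of Nr4a2 in replicate 1 and Egr3 in replicate 3, both 0.14, and Nr4a3 in replicate 4, 0.10.

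Both NAB corepressors of the EGR factors were present with them, while Egr4, the fourth family member, was close to absent. Nab2, which binds EGR proteins and represses their targets, lay at 193, 191, 202 and 205 TPM, above each EGR gene in every library, and its relative Nab1 at 45.9 ± 2.65 TPM (SD, n = 4). Egr4 had 7 to 16 read pairs per library, or 0.312 ± 0.105 TPM (SD, n = 4).

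Of 13 factors known to act on immediate early promoters, 12 reached 1 TPM in each library. So did 45.2% of nuclear protein-coding genes and 11000 of the 12285 genes tested for spread. The median level over the 13 factors was 45.9 TPM, against 22.9 TPM over all genes tested. Hdac7, a class IIa deacetylase that holds MEF2 targets such as Nr4a1 silent in thymocytes, was the highest, at 599.7, 621, 599.6 and 732 TPM, and replicate 4 stood above the other three. Srf, a factor known to bind CArG boxes, lay at 150 ± 8.28 TPM (SD, n = 4). Atf1, a CREB relative that is known to bind cyclic AMP response elements, lay at 109 ± 9.02 TPM, and Mef2d, a calcium-responsive activator of Nr4a1, at 84.4 ± 5.81 TPM (SD, n = 4). Mef2c was the exception, at 0.034 to 0.121 TPM.

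The other immediate early genes were spread over a wide range. Of 19 such genes, 18 reached 1 TPM in each library, against 45.2% of nuclear protein-coding genes and 11000 of 12285 genes tested. The median level of the 19 was 15 TPM, below the 22.9 TPM over all genes tested. Myc, the growth regulator, lay at 940 ± 51.1 TPM, Ier2 at 369 ± 9.96 TPM, the AP-1 gene Junb at 319 ± 15.3 TPM and Ier5 at 88.2 ± 1.56 TPM (SD, n = 4). The mean of Nr4a1 lay between those of Junb and Ier2. Fos and Jun, the best known genes of this class and named here after their values were seen, lay at 7.38 ± 0.659 TPM and 10.3 ± 1.06 TPM (SD, n = 4), below every member except Nr4a2. Fosb, at 0.527 to 0.858 TPM, was the gene that missed 1 TPM.

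Of 16 genes linked in earlier work to EGR factors in T cells, 15 reached 1 TPM in each library. This level was reached by 45.2% of nuclear protein-coding genes and by 11000 of 12285 genes tested. The median level of the 16 was 57.4 TPM, above the 22.9 TPM over all genes tested. Lag3, an inhibitory receptor, lay at 453 ± 24.9 TPM, Id3, an inhibitor of E proteins, at 401 ± 33.2 TPM, the interleukin 2 receptor chain gene Il2rb at 315 ± 22.4 TPM and Dgkz, a diacylglycerol kinase that damps receptor signals, at 239 ± 11.3 TPM (SD, n = 4). Rnf128, an anergy-associated ubiquitin ligase, was the gene below, at 0.059 to 0.365 TPM.

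On the NR4A side the dimer partners and the linked genes were mixed. The retinoid X receptors with which NR4A1 and NR4A2 can pair were represented by Rxrb at 106 ± 6.40 TPM and Rxra at 100.5 ± 6.70 TPM (SD, n = 4). Rxrg had no read pair in any library, which allows up to 0.0474 to 0.0649 CPM (3 counts of the total, counting error only). Of 8 genes linked to NR4A factors in tolerant, exhausted or regulatory T cells, 5 reached 1 TPM in each library. Among nuclear protein-coding genes 45.2% did so, and among genes tested 11000 of 12285. The median level over the 8 was 2.04 TPM, below the 22.9 TPM over all genes tested. Pdcd1, the receptor PD-1, lay at 216 ± 12.5 TPM, the cell death gene Bcl2l11 at 49.5 ± 4.57 TPM, Tox at 18.6 ± 0.656 TPM and Foxp3 at 2.93 ± 0.756 TPM (SD, n = 4). Tox2, Havcr2 and Entpd1, chosen for mention after their values were seen, lay at 0.140, 0.136 and 0.050 TPM on average. Of the 62 genes in these 6 lists, 55 entered the test of spread, and Egr4, Mef2c, Rnf128, Rxrg, Tox2, Havcr2 and Entpd1 were too low for it. None of the 55 passed (edgeR, against 0.228% of all genes tested), and 5 of them, 2 upstream factors and 3 EGR-linked genes, had an unadjusted p under 0.05, as 5.42% of all genes tested did.

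**Figure D5:**
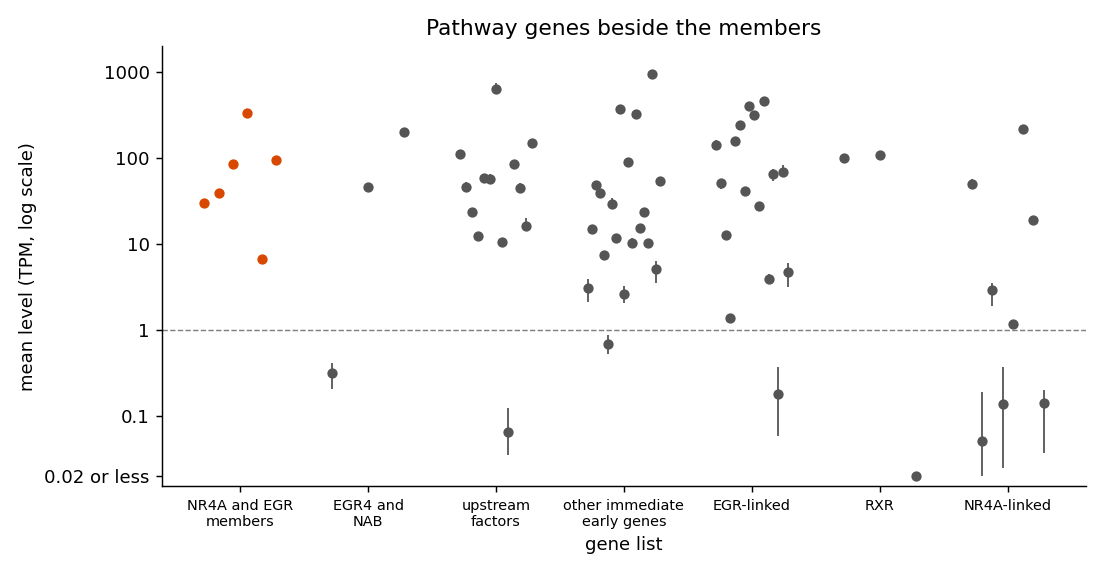
Mean level of each gene in TPM on a log axis, by list, with the members in orange; vertical lines run from the lowest to the highest library, genes within a list are in alphabetical order, and values at or under 0.02 TPM are drawn at 0.02. The dashed line marks 1 TPM. In every library 6 of 6 members and 18 of 19 other immediate early genes exceeded it. Of nuclear protein-coding genes 45.2% reached it, and of genes tested for spread 11000 of 12285.

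In their 3′ ends the members carried the pentamer ATTTA, the core of AU-rich elements that shorten the life of an mRNA. In the longest coding transcript of each gene in GENCODE M21, the 3′ UTR held 3 copies for Nr4a1, Nr4a2 and Egr2, 5 for Nr4a3, 2 for Egr1 and 7 for Egr3. Per kilobase of 3′ UTR these were 5.52 for Nr4a1, 2.65 for Egr3, 2.50 for Egr2, 2.26 for Nr4a2, 1.64 for Egr1 and 1.62 for Nr4a3, each above the median of 1.22 over 20834 protein-coding genes. The density of Nr4a1 was above that of 94.1% of these genes. Those of the other members were above between 57.6% (Nr4a3) and 74.1% (Egr3) of them. The longer form TATTTAT had 1 copy in Nr4a2 and 2 in Nr4a3, and none in Nr4a1, Egr1, Egr2 and Egr3. Of the protein-coding genes 27.5% held it. All of these are counts of letters, and mRNA stability was not measured.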

How the data were processed

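Per the file headers, the authors counted read pairs per gene with featureCounts 1.4.6-p4 (exons grouped by gene, strand setting 2, both mates mapped, GENCODE M13) from STAR alignments. The headers name no STAR version and record no setting for reads with several alignments or several genes. The deposited values are raw counts, with the exonic length of each gene, and the build is mm10 per the labels. No gene of the files overlaps the span of a member on either strand. The labels name both total RNA and a polyA+ protocol.

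From these, TPM was computed over all genes. Symbols came from GENCODE M21 (50376 of 50600 identifiers matched; older symbols through RefSeq synonyms). The test of spread used edgeR (4.0.16, under R 4.3.3) with TMM, filterByExpr, an intercept-only robust quasi-likelihood fit, and each gene's residual dispersion on 3 degrees of freedom against the trend by an F distribution (13.9 prior degrees of freedom, upper tail), adjusted over 12285 genes at 0.05. Tested on simulated data for the spread between the 4 libraries (12160 genes), it called 75 of 100 genes given 0.5 log2 of extra SD, 97 of 100 given 1 log2 and 3 of 11960 others. Extra SD was given only to genes with a mean count of 100 or more. No value under 0.5 log2 was tried, and the SD of the members was 0.035 to 0.105, so recovery at that size is not known. Size factors and dispersion outliers of DESeq2 (1.42.0) served as alternatives. Other steps ran in Python 3.11.15.

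Named genes were the members, the 4 highest genes of each list and the 2 genes most like each member. The members, lists and motifs were chosen with earlier results of these data known. Alternatives covered scaling, filters, gene length, pseudocount, detection floor and each replicate left out.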

Additional observations from a re-analysis of the deposited data

Results flagged for a closer look

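Among the members and the genes of the 6 lists, a value was picked out where 1 library lay apart from the other 3 by Dixon's ratio, past its critical value. Chance picks about 1 in 20 groups, and 5.89% of the 12285 genes tested for spread were picked in TPM. Nr4a2 was picked for replicate 1, at 7.23 TPM against 6.35 to 6.50 TPM in the others. Egr2 was picked for replicate 2, at 36.0 TPM against 39.7 to 39.95 TPM. Of the upstream factors 3 were picked, each for a high replicate 4: Hdac7 at 732 TPM against 599.6 to 621 TPM, Elk3 at 64.5 TPM against 54.4 to 55.98 TPM, and Elk4 at 65.3 TPM against 53.3 to 54.8 TPM. Of the NR4A-linked genes Havcr2 and Entpd1, both near 0, were picked for a high replicate 3, at 0.370 TPM against 0.025 to 0.082 TPM and at 0.190 TPM against 0 to 0.011 TPM. Nr4a3 in replicate 4 came close, with a ratio of 0.825.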

How the results depend on the processing

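No paired analysis was possible because the libraries form 1 group. The 28 of 12285 genes past the spread threshold became 142 of 20867 without a filter on low counts and 15 of 12285 with the non-robust fit. DESeq2 marked 84 of 20867 as dispersion outliers. With 1 replicate left out 14 to 27 passed, of 12416 to 12565 genes tested (14 of 12456 without replicate 3). No member passed under any of these, and the cause of the shifts in the count was not tested. In the order Nr4a1, Nr4a2, Nr4a3, Egr1, Egr2, Egr3, levels were 254, 5.95, 77.9, 23.7, 35.1 and 24.2 TPM with the longest transcript length, and 236, 5.08, 66.5, 20.2, 29.9 and 57.4 TPM with its part inside the counted exons, a choice made after the data were seen. They were 99.2, 1.98, 28.1, 8.95, 11.6 and 25.4 RPKM with TMM library sizes. Over nuclear protein-coding genes, levels were 354 (Nr4a1), 7.05 (Nr4a2), 100.3 (Nr4a3), 31.9 (Egr1), 41.3 (Egr2) and 90.6 TPM (Egr3). Shares of the family sum in the same order were 75.2, 1.76, 23.0, 28.6, 42.3 and 29.1% with the longest transcript length, and 58.2, 1.90, 39.9, 34.8, 34.1 and 31.1% in read pairs. Inside the counted exons the share of Nr4a2 was 1.65%, and those of Egr1, Egr2 and Egr3 were 18.8, 27.9 and 53.3%. Of 128 recomputed differences 4 reversed: Egr3 minus Egr2 was -0.52 log2 with the longest transcript length and -0.13 in read pairs, where Egr3 minus Egr1 was -0.16 and Egr2 minus Egr1 -0.029. None of 64 reversed with 1 replicate left out. At 5 TPM in every library the NR4A-linked list kept 3 detected genes, while 9025 of 12285 genes tested reached that level.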

Other observations

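Over the 4 libraries, many genes vary as a given member does, since the differences are small and 8662 protein-coding genes with mean TPM of at least 5 were compared. Likeness was the root mean square difference between centred log2 CPM values over the 4 libraries. The closest genes were Fam114a2 (0.0035) and Hnrnpk (0.0055) for Nr4a1, Slc25a45 (0.0089) and Nop16 (0.0093) for Nr4a2, and Tacc2 (0.0028) and Phf3 (0.0050) for Nr4a3. For Egr1 they were Klhl20 (0.0042) and Avl9 (0.0044), for Egr2 Parp2 (0.0036) and Uspl1 (0.0044), and for Egr3 Msl3l2 (0.0047) and 2010315B03Rik (0.0072). No other member was among the closest 2 of any member.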
